A study of Rattus norvegicus with 15 samples.

Results

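Epithelial and bile duct identity genes were followed in rat hepatocytes exposed to naphthalene and 3 of its hydroxylated relatives. The 10 genes were the adhesion molecules Epcam, Cdh1 and Esam, the caveolar coat protein Cav1, the keratins Krt7, Krt8, Krt18 and Krt19, the transcription factor Sox9 and the secreted phosphoprotein Spp1. They were chosen by symbol, through the transcript accession that the array design gives each probe, from 39001 gene names and accessions on the array. Each of the 10 had a probe, 15 probes in all, and 7 (Epcam, Cdh1, Esam, Cav1, Krt8, Krt18 and Sox9) were bright enough to test among 19803 genes. All 7 were well above background on all 15 arrays, so none entered through 1 group alone.

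Hepatocytes and bile duct cells (cholangiocytes) arise from a common progenitor and are both epithelia. Both contain intermediate filaments of keratin 8 paired with keratin 18, and both are joined by E-cadherin, the product of Cdh1. In rodent liver Epcam, Krt7, Krt19, Sox9 and Spp1 mark cholangiocytes and progenitor cells, with Notch and YAP signalling among the pathways that set the ductal fate, and hepatocytes can take on some of these genes in culture or after injury. Esam is known mainly as an adhesion molecule of endothelial tight junctions, and Cav1 is abundant in endothelial and stellate cells too.

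The study used cryopreserved primary hepatocytes of male Wistar rats (written Wister in the labels), cultured for 24 h and then exposed for 24 h to 30 µM of the diols 2,7-naphthalenediol and 1,5-naphthalenediol, of 1-naphthol or of naphthalene, or to DMSO. There were 3 arrays per group, 15 in all, from experiments that the submitters call independent. The sources used here do not say whether these came from different animals, nor how old the animals were. Naphthalene is a hydrocarbon of a pair of fused aromatic rings. A single hydroxyl group makes 1-naphthol, and the diols carry a pair of hydroxyl groups at positions given by their names. A level below is log2 intensity minus the 75th percentile of the array, so 0 is as bright as that percentile, and levels of different probes are not set against each other as amounts of RNA. A gene is called where the adjusted p of limma's moderated test over all 19803 genes was below 0.05, and the words rose, fell, higher or lower are kept for called genes. Errors of changes are standard errors, SD is that of 3 arrays, and the number of arrays limits the precision.

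The arrays gave similar quality, with 57.4% to 61% of gene spots well above background and a correlation of at least 0.996 between arrays of a group. They lay on 2 slides, which also differ in scan time. The 3 arrays of 2,7-naphthalenediol, the first 2 of 1,5-naphthalenediol and the 3 of DMSO were on slide 1. Slide 2 carried the remaining array of 1,5-naphthalenediol with the 3 of 1-naphthol and the 3 of naphthalene. The diols can therefore be set against DMSO within slide 1, and 1-naphthol against naphthalene within slide 2. For 1-naphthol or naphthalene against DMSO, slide and compound can be separated only through the divided group of 1,5-naphthalenediol, and values with the slide as a block are given beside those results.

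The genes fell into 2 classes of signal. Krt18 and Krt8, the keratin pair of hepatocytes, were among the brightest genes, with Krt18 brighter than 99.9% and Krt8 brighter than 98% of tested genes. Cav1 (brighter than 90.7%) and Cdh1 (87.6%) were in the upper range, Epcam (62%) near the middle, and Sox9 (35.3%) and Esam (30.8%) below it. In contrast, 3 ductal markers had almost no signal. Krt19 lay at 2.95 to 9.17 intensity units and Spp1 at 2.86 to 4.25, neither well above background on any array, where the dimmest probes above background lay at 4.08 to 10.9. For Krt7, 1 probe stayed at 3.06 to 4.55 and was above background on no array, and the other lay at 7.16 to 22.7 and was above background on 2 arrays. Of the 4 probes for Sox9, 1 was above background on all 15 arrays, at 127 to 221 units, while 3 reached 16.2 units at most and were above background on none. The defining ductal keratins were thus not measurable, and the name of the gene group describes what its genes are known for rather than the cells measured.

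**Figure D1:**
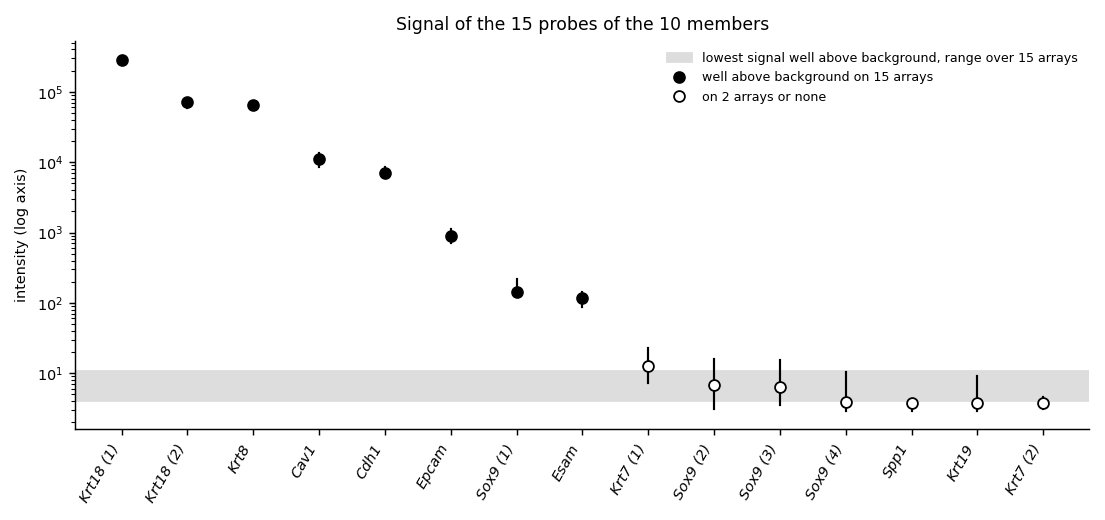
Intensity of the 15 probes of the 10 genes on a log axis, as the median (point) and range (line) over 15 arrays, filled where a probe was well above background on all 15 arrays and open where on 2 or none, with the range of the detection edge shaded. Krt18 and Krt8 lie at the top, at up to 299023 and 71221 units, and Krt19, Spp1, Krt7 and 3 of 4 Sox9 probes lie at or near the edge.

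Markers of the labelled cell type were present, and 19 of 20 hepatocyte markers were well above background on all 15 arrays. Of the endothelial list, 13 of 16 genes had a probe. Of these, Pecam1, Flt1, Tek, Tie1, Emcn, Lyve1, Cldn5 and Erg were above background on no array, and Cdh5, Eng and Vwf were above it on all 15. The level summed over all 13 genes with a probe was taken as a multiple of the array's 75th percentile. It was 1.72 to 1.90 with 2,7-naphthalenediol, 1.75 to 2.19 with 1,5-naphthalenediol, 2.09 to 2.21 with 1-naphthol, 2.11 to 2.18 with naphthalene and 1.91 to 2.11 with DMSO. None of the 3 tested genes, Cdh5, Eng and Vwf, was called against DMSO with any compound, but with 1,5-naphthalenediol the call of 2 of them depended on the setting. Cdh5 (VE-cadherin) changed by -0.30 under a slide block (adjusted p = 0.0441) and on slide 1 alone (adjusted p = 0.0528), and Eng (endoglin) by 0.67 in both (adjusted p = 0.159 and 0.0109). The macrophage list had 8 of 11 genes above background on no array, and its 2 tested genes, Cd68 and C1qb, were not called either.

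Stellate cell and fibroblast markers were partly present, with 7 of 15 above background on all arrays, among them Acta2, Des, Col1a2 and Tagln, and 5 (Lrat, Dcn, Lum, Ngfr and Postn) on none. The level summed over all 15 was 2.91 to 3.56 with 2,7-naphthalenediol, 2.22 to 2.41 with 1,5-naphthalenediol, 2.56 to 3.04 with 1-naphthol, 2.75 to 3.40 with naphthalene and 3.65 to 3.78 with DMSO. This sum was lower on every compound array than on any DMSO array. So was the summed level of the 20 hepatocyte markers, at 595 to 639 over the compound arrays against 644 to 658 with DMSO. The called stellate cell and fibroblast genes ran both ways. Of 8 tested, 1 rose and 0 fell with 2,7-naphthalenediol, 1 rose and 1 fell with 1,5-naphthalenediol, 0 rose and 2 fell with 1-naphthol, and 1 rose and 1 fell with naphthalene, with median changes of -0.03, -0.09, 0.01 and 0.11. The shares called were 12.5%, 25%, 25% and 25% in this order, close to the 11%, 22.1%, 20.8% and 25.1% of all genes. Reln, the secreted glycoprotein reelin, rose by 0.35, 0.52 and 0.40 with 2,7-naphthalenediol, 1,5-naphthalenediol and naphthalene (adjusted p = 0.0232, 0.00122 and 0.00743). Tagln, an actin-binding protein of smooth muscle and myofibroblasts, fell by 0.75 with 1,5-naphthalenediol (adjusted p = 0.00042) and by 0.48 with 1-naphthol (adjusted p = 0.00912). Whether fewer such cells, or less of these RNAs per cell, had a part in the values of Cav1 and Esam was not tested, and in bulk RNA the 2 cannot be told apart.

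The RefSeq table of promoters (build GRCr8) held windows for 5 of the 10 genes: Epcam, Krt8, Krt18, Spp1 and Cav1. The 250 bases before the start are shown for Epcam and for the first of the 2 windows of Cav1, since both genes were lower with all 3 hydroxylated compounds. Capitals mark matches, on either strand, to GCGTG (the core bound by the aryl hydrocarbon receptor, which responds to aromatic compounds), TGANTCA (AP-1), CACCTG (an E-box of the kind bound by Snail and Zeb factors) and GGGCGG (GC box). The window of Epcam is chr6:12649679-12649928 on the minus strand and that of Cav1 is chr4:46606288-46606537 on the plus strand, both written 5′ to 3′ along the gene.
Epcam: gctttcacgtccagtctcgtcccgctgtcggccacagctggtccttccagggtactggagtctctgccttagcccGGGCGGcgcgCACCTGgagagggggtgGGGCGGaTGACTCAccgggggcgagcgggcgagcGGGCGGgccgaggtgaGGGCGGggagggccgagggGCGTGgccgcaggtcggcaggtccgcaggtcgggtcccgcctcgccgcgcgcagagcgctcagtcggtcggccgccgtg
Cav1: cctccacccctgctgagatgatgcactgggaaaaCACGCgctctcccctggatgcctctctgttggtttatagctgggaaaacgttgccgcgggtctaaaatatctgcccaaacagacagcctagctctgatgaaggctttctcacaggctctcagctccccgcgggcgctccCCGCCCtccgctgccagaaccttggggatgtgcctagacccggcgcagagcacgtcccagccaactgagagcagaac
Over the whole 300-base windows, Epcam was 75.7% G and C and Cav1 61.7%, against a median of 51.7% for all 33465 windows. The receptor core was found once in each, from base -79 relative to the start of Epcam and from base -216 relative to that of Cav1. It occurs in 29.7% of all windows, and the AP-1, E-box and GC box letters in 7.3%, 18.8% and 33.1%. The matches of Epcam were 1 to AP-1, 1 to the E-box and 4 to the GC box, and this window of Cav1 held 2 GC boxes, the second of them in the 50 bases after the start. The other window of Cav1, not shown, held 0 receptor cores, 0 GC boxes and 1 E-box, from base -228. None of these windows held TGACNNNGC (the core of the antioxidant response element, in 12.1% of windows) or GGAATG (TEAD factors, 14.2%). These are matches of letters only.

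Epcam, an adhesion molecule of epithelia and hepatic progenitors, was lower with each hydroxylated compound than with DMSO. Its level was -1.37, -1.21 and -1.27 with 2,7-naphthalenediol, and -1.16, -1.15 and -1.20 with 1,5-naphthalenediol. With 1-naphthol it was -1.41, -1.18 and -1.45. With naphthalene it was -0.96, -0.89 and -0.83, and with DMSO -0.94, -0.78 and -0.82. The 9 arrays of the hydroxylated compounds all lay below the 6 of naphthalene and DMSO, and the values of naphthalene overlapped those of DMSO. Against DMSO, Epcam fell by 0.44 ± 0.07 on the log2 scale with 2,7-naphthalenediol (adjusted p = 0.00517), to 73.9% of the DMSO level. With 1,5-naphthalenediol it fell by 0.32 ± 0.07 (adjusted p = 0.0083) and with 1-naphthol by 0.50 ± 0.07 (adjusted p = 0.00181), to 80% and 70.7%. The change with naphthalene was -0.05 (95% interval -0.20 to 0.11, adjusted p = 0.674). On slide 1 alone, the changes were -0.44 with 2,7-naphthalenediol (adjusted p = 0.0152) and -0.31 with 1,5-naphthalenediol (adjusted p = 0.0259). With the slide as a block, the change with 1-naphthol was -0.45 ± 0.13, a similar size with a wider error, and no longer called (adjusted p = 0.11), and that with naphthalene was -0.00 ± 0.13 (adjusted p = 0.999).

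Cav1, which builds the coat of caveolae, was lower with the same 3 compounds and had the smallest adjusted p of the 7 genes in the F test of the 5 groups (2.56e-05). Its level was 2.55, 2.54 and 2.52 with 2,7-naphthalenediol, and 2.18, 2.17 and 2.30 with 1,5-naphthalenediol. With 1-naphthol it was 2.38, 2.33 and 2.34. The values with naphthalene were 2.65, 2.70 and 2.74, and those with DMSO 2.78, 2.74 and 2.83. The groups stood in the order 1,5-naphthalenediol, 1-naphthol, 2,7-naphthalenediol, then naphthalene and DMSO, from low to high, and only the ranges of naphthalene and DMSO overlapped. Against DMSO, Cav1 fell by 0.57 ± 0.04 with 1,5-naphthalenediol (adjusted p = 6.19e-06), to 67.5% of the DMSO level. It fell by 0.43 ± 0.04 with 1-naphthol (adjusted p = 0.000246) and by 0.24 ± 0.04 with 2,7-naphthalenediol (adjusted p = 0.00669), to 74.2% and 84.4%. With naphthalene the change was -0.08 (95% interval -0.18 to 0.01, adjusted p = 0.173). It was larger under other settings: -0.21 ± 0.06 under a slide block, not called (adjusted p = 0.113), and -0.17 with median scaling, where Cav1 was called lower (adjusted p = 0.0191). Within slide 1 the changes were -0.61 for 1,5-naphthalenediol (adjusted p = 0.000816) and -0.24 for 2,7-naphthalenediol (adjusted p = 0.0186). With 1-naphthol and the slide as a block it was -0.56 ± 0.06 and still called (adjusted p = 0.00437).

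Esam, the endothelial cell-selective adhesion molecule, was lower with 1,5-naphthalenediol and 1-naphthol. Its level was -3.96, -3.94 and -4.11 with 2,7-naphthalenediol, and -4.15, -4.33 and -4.26 with 1,5-naphthalenediol. With 1-naphthol it was -4.21, -4.59 and -4.31. The values with naphthalene were -3.78, -3.89 and -3.87, and with DMSO -3.84, -3.79 and -3.95. All arrays of 1,5-naphthalenediol and 1-naphthol lay below all others, and 2,7-naphthalenediol overlapped DMSO. Esam fell by 0.39 ± 0.09 with 1,5-naphthalenediol (adjusted p = 0.00963) and by 0.51 ± 0.09 with 1-naphthol (adjusted p = 0.00384), to 76.5% and 70.2% of the DMSO level. The change was -0.14 (95% interval -0.34 to 0.05, adjusted p = 0.315) with 2,7-naphthalenediol and 0.01 (-0.18 to 0.21, adjusted p = 0.941) with naphthalene. On slide 1 alone, the change with 1,5-naphthalenediol was -0.38 (adjusted p = 0.0237). With 1-naphthol the change was -0.49 ± 0.17 once the slide was a block, and no longer called (adjusted p = 0.15), and with naphthalene it was 0.03 ± 0.17 (adjusted p = 0.94).

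Cdh1 encodes E-cadherin, the adherens junction protein shared by hepatocytes and duct cells, and was higher with 2,7-naphthalenediol. Its level was 2.03, 2.08 and 2.10 with 2,7-naphthalenediol, 1.94, 1.90 and 1.99 with 1,5-naphthalenediol, and 1.73, 1.75 and 1.85 with 1-naphthol. With naphthalene it was 1.93, 2.01 and 1.94, and with DMSO 1.71, 1.91 and 1.87. All 3 arrays of 2,7-naphthalenediol were above every other array, and DMSO had the widest spread (SD 0.11). Cdh1 rose by 0.24 ± 0.05 with 2,7-naphthalenediol (adjusted p = 0.0181), to 118% of the DMSO level. Changes were 0.11 (adjusted p = 0.154) with 1,5-naphthalenediol, -0.05 (adjusted p = 0.502) with 1-naphthol and 0.13 (adjusted p = 0.0973) with naphthalene. Under the slide block the changes were -0.12 ± 0.10 with 1-naphthol (adjusted p = 0.559) and 0.06 ± 0.10 with naphthalene (adjusted p = 0.761). The call with 2,7-naphthalenediol was narrow: the adjusted p was 0.0492 on slide 1 alone, and 0.0647, 0.0635 and 0.0505 without array 2 of 2,7-naphthalenediol, array 3 of it or array 1 of DMSO.

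The keratin pair moved little. Krt18, the acidic partner, was at 7.15, 7.21 and 7.17 with 2,7-naphthalenediol, 7.17, 7.19 and 7.12 with 1,5-naphthalenediol, and 7.13, 7.10 and 7.17 with 1-naphthol. With naphthalene it was 7.22, 7.18 and 7.25, and with DMSO 7.28, 7.25 and 7.30. DMSO was above every compound array. Krt18 fell by 0.12 ± 0.04 with 1,5-naphthalenediol (adjusted p = 0.0317) and by 0.15 ± 0.04 with 1-naphthol (adjusted p = 0.0154). Changes were -0.10 (adjusted p = 0.0904) with 2,7-naphthalenediol and -0.06 (adjusted p = 0.209) with naphthalene. A second, dimmer Krt18 probe differed from it: its change was -0.04 with 1,5-naphthalenediol (adjusted p = 0.559) and -0.12 with 1-naphthol (adjusted p = 0.0647), and it was called with naphthalene instead, at -0.16 (adjusted p = 0.019). Under the slide block, the changes of the brighter probe were -0.10 with 1,5-naphthalenediol (adjusted p = 0.0806), -0.09 with 1-naphthol (adjusted p = 0.475) and -0.01 with naphthalene (adjusted p = 0.965). Neither call held with quantile normalization or normexp: with the first the changes were -0.02 with 1,5-naphthalenediol (adjusted p = 0.729) and -0.05 with 1-naphthol (adjusted p = 0.273), and with normexp -0.09 (adjusted p = 0.152) and -0.07 (adjusted p = 0.253). The call with 1,5-naphthalenediol was lost in 12 of 17 alternatives, among them those without array 1 or 3 of that compound or array 1 or 3 of DMSO (adjusted p = 0.0635, 0.0806, 0.0771 and 0.105). The call with 1-naphthol was lost without its array 2 or DMSO array 3 (adjusted p = 0.0634 and 0.0606). Other settings added calls. With median scaling Krt18 was lower with 2,7-naphthalenediol and naphthalene (-0.15 each, adjusted p = 0.0315 and 0.0152). It was also lower with 2,7-naphthalenediol under an intensity trend (adjusted p = 0.0374) and with naphthalene for the mean of its probes (adjusted p = 0.0392).

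Krt8, the basic partner, was called in no comparison of the main fit. With median scaling Krt8 was called lower with 2,7-naphthalenediol against DMSO, at -0.20 (adjusted p = 0.0497). Its gene lies on chromosome 7 of GRCr8 with 0 protein-coding genes between it and Krt18, and 26 between it and Krt7. Its level was 5.01, 4.97 and 5.05 with 2,7-naphthalenediol, 5.19, 4.99 and 5.03 with 1,5-naphthalenediol, and 5.05, 4.95 and 5.08 with 1-naphthol. It was 5.20, 4.96 and 5.11 with naphthalene and 5.12, 5.18 and 5.15 with DMSO. All 3 arrays of 2,7-naphthalenediol and all 3 of 1-naphthol were below the DMSO range, and the other compounds overlapped it. Changes against DMSO ran from -0.15 with 2,7-naphthalenediol (95% interval -0.29 to -0.00, adjusted p = 0.163) to -0.06 with naphthalene (-0.21 to 0.08, adjusted p = 0.499). Those of 1-naphthol and naphthalene were -0.06 ± 0.12 (adjusted p = 0.823) and -0.00 ± 0.12 (adjusted p = 1.00) under the slide block.

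Sox9, a transcription factor of the ductal plate, divided by slide. Its level at the 1 bright probe was -3.67, -3.74 and -3.77 with 2,7-naphthalenediol, -3.91, -3.85 and -3.52 with 1,5-naphthalenediol, and -3.62, -3.23 and -3.47 with 1-naphthol. It was -3.36, -3.45 and -3.58 with naphthalene and -3.74, -3.94 and -3.80 with DMSO. All 7 arrays of slide 2 were above all 8 of slide 1, including the 1 array of 1,5-naphthalenediol on slide 2, which stood 0.36 above the mean of its group's 2 arrays on slide 1. For the other 6 genes this difference was between -0.06 and 0.13. Sox9 rose by 0.39 ± 0.11 with 1-naphthol (adjusted p = 0.0322) and by 0.36 ± 0.11 with naphthalene (adjusted p = 0.0354). Under the slide block, the changes were 0.03 ± 0.17 (adjusted p = 0.954) and 0.00 ± 0.17 (adjusted p = 0.994). Changes with the diols were 0.10 (adjusted p = 0.575) for 2,7-naphthalenediol and 0.07 (adjusted p = 0.709) for 1,5-naphthalenediol. The calls also depended on single arrays: that of 1-naphthol was lost without its array 2 or 3 or DMSO array 2 or 3 (adjusted p = 0.123, 0.0736, 0.105 and 0.0748). That of naphthalene was lost without its array 1 or 2 or any DMSO array, with adjusted p between 0.0502 and 0.114.

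**Figure D2:**
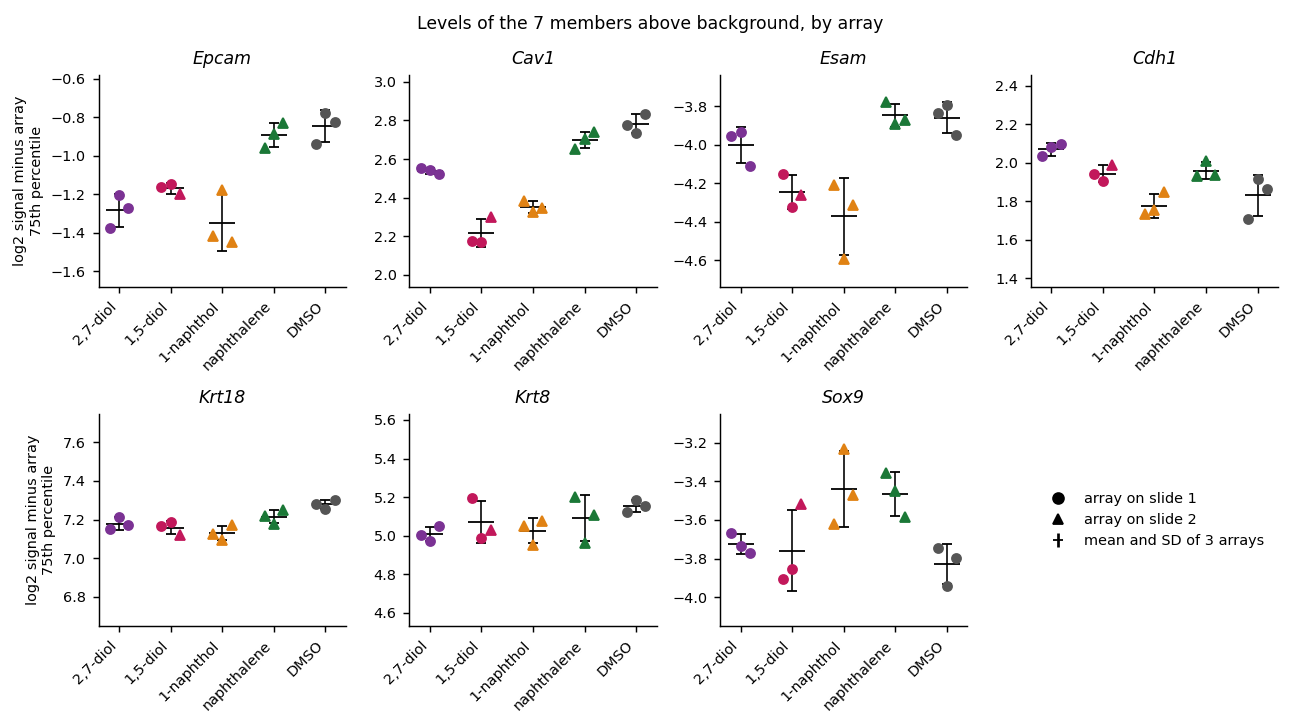
Level of the 7 tested genes on each array, by group, as log2 intensity minus the array's 75th percentile, with the mean and SD of 3 arrays as bars and circles or triangles for slides 1 and 2; each panel has its own vertical range. Epcam and Cav1 lie lower with the 3 hydroxylated compounds than with naphthalene and DMSO, and Sox9 is higher on every array of slide 2.

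Counted over the 7 tested genes, 3 were called with 2,7-naphthalenediol against DMSO (1 higher, 2 lower), where 11% of all tested genes were called (6.20% higher, 4.84% lower). With 1,5-naphthalenediol 4 were called, all lower, against 22.1% of all genes and 12.7% in that direction. With 1-naphthol 5 were called (1 higher, 4 lower), against 20.8% (10.2% higher, 10.6% lower), and with naphthalene 1, Sox9, which was higher, against 25.1% and 12.5% in that direction. The count with naphthalene was no higher than its background. Among all genes 12.6% were called lower with naphthalene and 9.41% higher with 1,5-naphthalenediol. The split of all calls depends on the scaling: with median scaling 25.4%, 25.7%, 34.4% and 20.2% of called genes were higher with the 4 compounds in this order, against 56.2%, 42.5%, 49.1% and 49.8% with the 75th percentile. The median change of the 7 was -0.14, -0.12, -0.15 and -0.05 in that order of compounds, where the median over all genes was between -0.02 and 0.00. A test of any difference among the 5 groups (limma's moderated F test) called 6 of the 7, all but Krt8 (adjusted p = 0.312), against 44.7% of all genes. The genes were chosen with earlier results of these data known, and how far that choice raised these counts was not tested. The 4 comparisons share the DMSO arrays. With 1-naphthol the count was 3 without its array 2 or without DMSO array 3, and 1, Cav1, with the slide as a block, a model in which 223 of all genes were called in place of 4128.

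**Figure D3:**
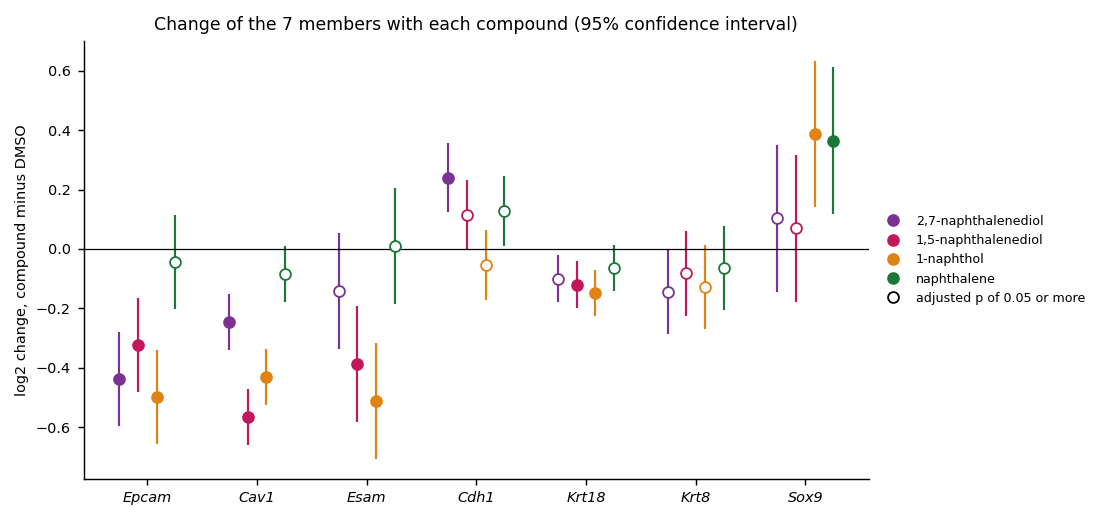
Change of the 7 tested genes against DMSO for the 4 compounds on the log2 scale, with 95% confidence intervals and filled symbols where the adjusted p was below 0.05. Intervals of Epcam and Cav1 lie below 0 for the 3 hydroxylated compounds and include 0 for naphthalene.

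Dose and time were the same for all compounds, so the 6 pairs of compounds were also compared. The pair of 1-naphthol and naphthalene, which differ by a single hydroxyl group and share slide 2, held 3 called genes of 7, where 2.44% of all genes were called and 1.40% were called lower with 1-naphthol. Esam was lower with 1-naphthol by 0.52 ± 0.09 (adjusted p = 0.012), Epcam by 0.45 ± 0.07 (adjusted p = 0.00785) and Cav1 by 0.35 ± 0.04 (adjusted p = 0.00221). The same 3 genes were called with the slide as a block (adjusted p = 0.0155, 0.0115 and 0.000934) and without any 1 of the 6 arrays. In a fit of these 6 arrays alone, with fewer degrees of freedom, none was called (adjusted p = 0.124, 0.11 and 0.0599), and 53 of all 19803 genes were. The difference of Cdh1 was -0.18 (95% interval -0.30 to -0.06, adjusted p = 0.103), that of Krt18 -0.08 (-0.16 to -0.01, adjusted p = 0.252), and that of Sox9 0.02 (-0.22 to 0.27, adjusted p = 0.954).

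Against naphthalene, both diols gave lower Epcam and Cav1. With 1,5-naphthalenediol 3 of 7 genes were called, where 24.9% of all genes were, 13.7% downward: Cav1 fell by 0.48 ± 0.04 (adjusted p = 2.67e-05), Esam by 0.40 ± 0.09 (adjusted p = 0.00839) and Epcam by 0.28 ± 0.07 (adjusted p = 0.0172). In this comparison the endothelial marker Cdh5 also fell, by 0.42 (adjusted p = 0.0085). So did the stellate cell markers Col3a1, by 0.58 (adjusted p = 0.0468), and Tagln, by 0.45 (adjusted p = 0.00904). Col3a1, unlike Cdh5 and Tagln, was not well above background on all 15 arrays. The part of these 3 genes in the result was not tested. On slide 2, which held 1 array of the diol, the differences were -0.40 for Cav1 (adjusted p = 0.0401), -0.41 for Esam (adjusted p = 0.199) and -0.31 for Epcam (adjusted p = 0.221). Epcam was not called without naphthalene array 3 (adjusted p = 0.0519). Sox9, not called in the main fit, was lower without 1,5-naphthalenediol array 3 (adjusted p = 0.0122) and with normexp (adjusted p = 0.0153). With 2,7-naphthalenediol 2 of 7 were called, where 15.8% of all genes were, 9.50% downward: Epcam fell by 0.39 ± 0.07 (adjusted p = 0.00865) and Cav1 by 0.16 ± 0.04 (adjusted p = 0.0278). The groups of this pair share no slide, and neither was called with the slide as a block (-0.44 with adjusted p = 0.37, and -0.03 with adjusted p = 0.92). The call of Cav1 was lost without any 1 array of 2,7-naphthalenediol and without naphthalene array 2 or 3 (adjusted p between 0.0585 and 0.089).

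The diols differed from each other in Cav1. It was lower with 1,5-naphthalenediol than with 2,7-naphthalenediol by 0.32 ± 0.04 (adjusted p = 0.000589), at 80% of its level there, and by 0.37 within slide 1 (adjusted p = 0.00703). This was the 1 call of 7, where 14.7% of all genes were called and 8.10% were called lower, and it held without any 1 of the 6 arrays. Tagln fell too, by 0.48 (adjusted p = 0.00934), and its part was not tested. The difference of Epcam was 0.11 (95% interval -0.04 to 0.27, adjusted p = 0.333), that of Esam -0.25 (-0.44 to -0.05, adjusted p = 0.0905) and that of Cdh1 -0.13 (-0.24 to -0.01, adjusted p = 0.142). The interval of Epcam includes 0, and those of Esam and Cdh1 do not, though neither gene was called.

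Between 2,7-naphthalenediol and 1-naphthol, 3 of 7 genes were higher with the diol, where 14.7% of all genes were called and 6.23% were called higher. Esam was higher by 0.37 ± 0.09 (adjusted p = 0.0194), Cdh1 by 0.29 ± 0.05 (adjusted p = 0.00894) and Cav1 by 0.19 ± 0.04 (adjusted p = 0.0168), while Epcam differed by 0.06 (95% interval -0.10 to 0.22, adjusted p = 0.599). The groups lie on different slides, and with the slide as a block the differences were 0.35 ± 0.17, 0.36 ± 0.10 and 0.31 ± 0.06, with wider errors and no call (adjusted p = 0.57, 0.253 and 0.141). The endothelial marker Vwf was lower with the diol, by 0.24 (adjusted p = 0.0492). Esam was not called without 2,7-naphthalenediol array 1 or 2 or 1-naphthol array 2 (adjusted p = 0.0583, 0.0654 and 0.0595), and Cav1 not without 1-naphthol array 2 or 3 (adjusted p = 0.0637 and 0.0538).

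No gene of the 7 was called by limma between 1,5-naphthalenediol and 1-naphthol, where 9.16% of all genes were, and 4 had an unadjusted p below 0.05. The differences were -0.14 for Cav1 (95% interval -0.23 to -0.04, adjusted p = 0.0667), 0.17 for Cdh1 (0.05 to 0.28, adjusted p = 0.0709), 0.18 for Epcam (0.02 to 0.34, adjusted p = 0.139) and 0.12 for Esam (-0.07 to 0.32, adjusted p = 0.397). Cav1 and Sox9 were called without 1,5-naphthalenediol array 3, the array on slide 2 (adjusted p = 0.0113 and 0.0148), and Epcam without 1-naphthol array 2 (adjusted p = 0.0436).

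**Figure D4:**
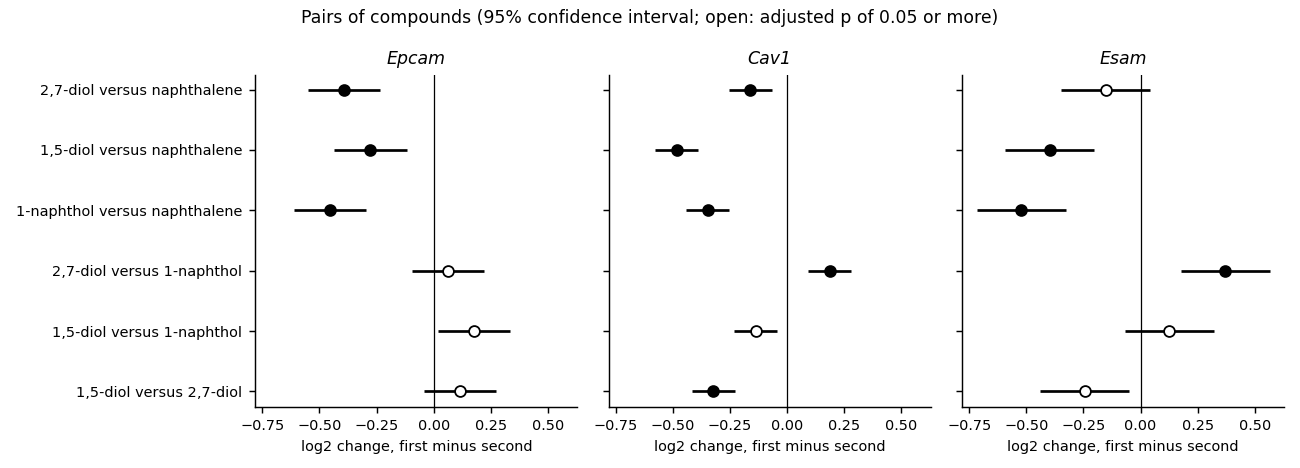
Differences of Epcam, Cav1 and Esam between the 6 pairs of compounds on the log2 scale, first-named compound minus second, with 95% confidence intervals and filled symbols where the adjusted p was below 0.05. All 3 genes are lower with 1-naphthol than with naphthalene, and Cav1 is lower with 1,5-naphthalenediol than with 2,7-naphthalenediol.

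Genes of the same structures and pathways were read from lists, and the shares called are set beside those of all tested genes, without a test of the lists. Under the slide block, 223 of the 19803 genes were called with 1-naphthol and 144 with naphthalene, against DMSO. A list without calls in that model is therefore no result about its genes. On slide 1 alone, 3554 of all genes were called with 1,5-naphthalenediol. Beside the adherens junction gene Cdh1, 23 of 28 other junction genes were tested. With 2,7-naphthalenediol 2 rose and 1 fell, and with 1,5-naphthalenediol 2 rose and 4 fell. With 1-naphthol 1 rose and 7 fell, and with naphthalene 1 rose and 6 fell. The called shares were 13%, 26.1%, 34.8% and 30.4% in this order, against 11%, 22.1%, 20.8% and 25.1% of all genes. The tight junction protein gene Ocln fell by 0.24 with 1,5-naphthalenediol (adjusted p = 0.0122), by 0.25 with 1-naphthol (adjusted p = 0.0132) and by 0.20 with naphthalene (adjusted p = 0.0323). Nectin2, an adherens junction adhesion molecule, fell by 0.41 with 1-naphthol (adjusted p = 0.00902). Ctnnb1, which encodes the beta-catenin that binds E-cadherin, fell by 0.27 with 1-naphthol (adjusted p = 0.0379) and by 0.28 with naphthalene (adjusted p = 0.0287). With the slide as a block, 1 junction gene was lower and 0 were higher with each of these 2 compounds.

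Of 11 other tested caveola components (of 12), 0 were called with 2,7-naphthalenediol, 2 rose and 2 fell with 1,5-naphthalenediol, 2 rose and 1 fell with 1-naphthol, and 3 rose and 1 fell with naphthalene. These are 0%, 36.4%, 27.3% and 36.4% of the list, against 11%, 22.1%, 20.8% and 25.1% of all genes. Cav2, the partner of Cav1 in the caveolar coat, fell by 0.33 with 1,5-naphthalenediol (adjusted p = 0.0393). Ehd4, of the dynamin-like EHD family, fell by 0.25 with 1,5-naphthalenediol (adjusted p = 0.00389), by 0.32 with 1-naphthol (adjusted p = 0.00247) and by 0.24 with naphthalene (adjusted p = 0.00675). On slide 1 alone, 0 caveola components rose and 1 fell with 1,5-naphthalenediol, so Cav2 and Ehd4 were not both called there. Cavin2, a cavin of the coat, rose by 0.85 with 1-naphthol (adjusted p = 0.00691) and by 0.92 with naphthalene (adjusted p = 0.00432), and with the slide as a block by 0.16 and 0.23, not called (adjusted p = 0.726 and 0.55).

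Mesenchymal transition genes, 14 of 19 tested, were counted because loss of Epcam and Cdh1 accompanies that transition elsewhere. All calls were downward with 1,5-naphthalenediol and 1-naphthol: 0 rose and 6 fell with 1,5-naphthalenediol (median change -0.25) and 0 rose and 5 fell with 1-naphthol (median -0.36). With 2,7-naphthalenediol 1 rose and 0 fell (median -0.06), and with naphthalene 2 rose and 2 fell (median 0.01). The latter are 7.14% and 28.6% of the list, against 11% and 25.1% of all genes. The lower calls were 42.9% of the list with 1,5-naphthalenediol and 35.7% with 1-naphthol, against 12.7% and 10.6% of all genes, and whether the compounds differ in this share was not tested. Vim, the mesenchymal intermediate filament, fell by 0.72 with 1,5-naphthalenediol (adjusted p = 0.000148), by 0.45 with 1-naphthol (adjusted p = 0.00516) and by 0.29 with naphthalene (adjusted p = 0.0298). Loxl2, a lysyl oxidase of the matrix, fell by 0.53 with 1,5-naphthalenediol (adjusted p = 0.00375) and by 0.44 with 1-naphthol (adjusted p = 0.0136). Between 1-naphthol and naphthalene, which share slide 2, Loxl2 was lower with 1-naphthol by 0.47 and Cd44, the hyaluronan receptor, by 0.46. On slide 1 alone, 0 rose and 4 fell with 1,5-naphthalenediol. With the slide as a block none was called with 1-naphthol or naphthalene, where the median changes were -0.25 and -0.05. Some of these genes are also expressed by stellate cells, whose part was not tested.

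Of the YAP and TEAD pathway, 15 of 18 genes were tested, and 0 rose and 1 fell with 2,7-naphthalenediol, 2 rose and 5 fell with 1,5-naphthalenediol, 0 rose and 5 fell with 1-naphthol and 1 rose and 2 fell with naphthalene. These are 6.67%, 46.7%, 33.3% and 20% of the list, against 11%, 22.1%, 20.8% and 25.1% of all genes. The shares called lower were 6.67%, 33.3%, 33.3% and 13.3%, against 4.84%, 12.7%, 10.6% and 12.6% of all genes. The target gene Ankrd1 fell by 0.70 with 1,5-naphthalenediol (adjusted p = 0.000992), by 0.53 with 1-naphthol (adjusted p = 0.00789) and by 0.42 with naphthalene (adjusted p = 0.0179). Ccn1, another target, fell by 0.31 with 1,5-naphthalenediol (adjusted p = 0.00805) and by 0.23 with 1-naphthol (adjusted p = 0.0359). On slide 1 alone 0 rose and 5 fell with 1,5-naphthalenediol. With the slide as a block no gene of the list was called with 1-naphthol or naphthalene, though Ankrd1 changed by -0.53 ± 0.21 and -0.42 ± 0.21 there, the same size as before with a wider error (adjusted p = 0.198 and 0.288).

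Of further bile duct and progenitor genes, 13 of 28 were tested. With 2,7-naphthalenediol 2 rose and 0 fell, and with 1,5-naphthalenediol 1 rose and 0 fell. With 1-naphthol 2 rose and 1 fell, and with naphthalene 6 rose and 0 fell. The called shares were 15.4%, 7.69%, 23.1% and 46.2% in this order, against 11%, 22.1%, 20.8% and 25.1% of all genes. The shares called higher were 15.4%, 7.69%, 15.4% and 46.2%, against 6.20%, 9.41%, 10.2% and 12.5% of all genes. Of the 24 genes of the list with a probe, 11 were well above background on all 15 arrays, among them Prom1, Cd24, Aqp1 and Ggt1. Another 7 (Cftr, Cldn7, Tspan8, Dcdc2, Ncam1, Lgr5 and Dlk1) were above background on no array. With naphthalene the median change of the list was 0.16, but 0.06 with the slide as a block, where 0 rose and 0 fell. Pkhd1 rose the most with naphthalene, by 0.70 (adjusted p = 0.0188), and changed by 0.86 ± 0.34 under the slide block, not called (adjusted p = 0.196). This gene was not well above background on all 15 arrays. It was tested because every array of some group was, so its change rests in part on values near background. Ggt1, the gamma-glutamyltransferase of ducts and fetal liver, rose with every compound, by 0.29, 0.22, 0.50 and 0.43 in the order of compounds above (adjusted p = 0.00806, 0.0134, 0.000358 and 0.00139). Under the slide block it was not called with 1-naphthol (0.44, adjusted p = 0.0584) or naphthalene (0.37, adjusted p = 0.0855). With 1,5-naphthalenediol it was called under the block (0.20, adjusted p = 0.0389), but on slide 1 alone no gene of the list was called with this compound. Aqp1, a water channel of cholangiocytes, rose by 0.41 with 1-naphthol (adjusted p = 0.0151) and by 0.45 with naphthalene (adjusted p = 0.00963), but by 0.03 and 0.06 with the slide as a block, neither called (adjusted p = 0.926 and 0.816). Of the Notch list, 7 of 13 were tested and 0 fell. The shares called higher were 14.3%, 14.3%, 28.6% and 28.6% of this list, beside the same shares of all genes given above. The receptor gene Notch1 rose by 0.24, 0.42, 0.36 and 0.39 in the same order of compounds (adjusted p = 0.024, 0.000442, 0.00283 and 0.00235), and the Notch target gene Hey1 by 0.51 with 1-naphthol (adjusted p = 0.00207) and by 0.54 with naphthalene (adjusted p = 0.00189). With the slide as a block the changes with 1-naphthol and naphthalene were 0.34 and 0.37 for Notch1 and 0.44 and 0.47 for Hey1, of similar size but with wider errors, and not called (adjusted p between 0.107 and 0.132).

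Other keratins and keratin partners, 9 of 18 tested, had 1 call upward with 2,7-naphthalenediol, 2 upward and 1 downward with 1,5-naphthalenediol, and 1 upward each with 1-naphthol and naphthalene. These are 11.1%, 33.3%, 11.1% and 11.1% of the list, where 11%, 22.1%, 20.8% and 25.1% of all genes were called. The call common to all 4 compounds was Plec, which encodes the plectin that links keratin filaments to the cell membrane, at 0.37, 0.39, 0.25 and 0.41 in the same order (adjusted p = 0.0082, 0.0022, 0.0278 and 0.00322). Under the slide block it was 0.45 with 1-naphthol, not called (adjusted p = 0.0654), and 0.62 with naphthalene (adjusted p = 0.0353). Epithelial regulators, 10 of 13 tested, had 5 calls upward and 0 downward with 2,7-naphthalenediol, 2 and 0 with 1,5-naphthalenediol, 3 and 0 with 1-naphthol, and 2 and 1 with naphthalene, or 50%, 20%, 30% and 30% of the list. The shares called higher were 50%, 20%, 30% and 20%, against 6.20%, 9.41%, 10.2% and 12.5% of all genes. With 2,7-naphthalenediol the Krüppel-like factor genes Klf4 and Klf5 rose by 0.43 (adjusted p = 0.013) and 0.28 (adjusted p = 0.0414). Of the 20 hepatocyte markers, 1 fell with 2,7-naphthalenediol, 4 rose and 2 fell with 1,5-naphthalenediol, 1 rose with 1-naphthol and 5 fell with naphthalene, which is 5%, 30%, 5% and 25% of the list. With naphthalene that share is close to the 25.1% of all genes called in either direction. All 5 of these calls were lower, however, which is 25% of the list against 12.6% of all genes. The genes that rose with 1,5-naphthalenediol included Pck1, which was not well above background on all 15 arrays. Under the slide block, no gene of the caveola, bile duct, Notch, epithelial regulator, stellate cell or hepatocyte lists was called with 1-naphthol or naphthalene against DMSO. In that model 223 and 144 of all 19803 genes were called with these compounds.

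**Figure D5:**
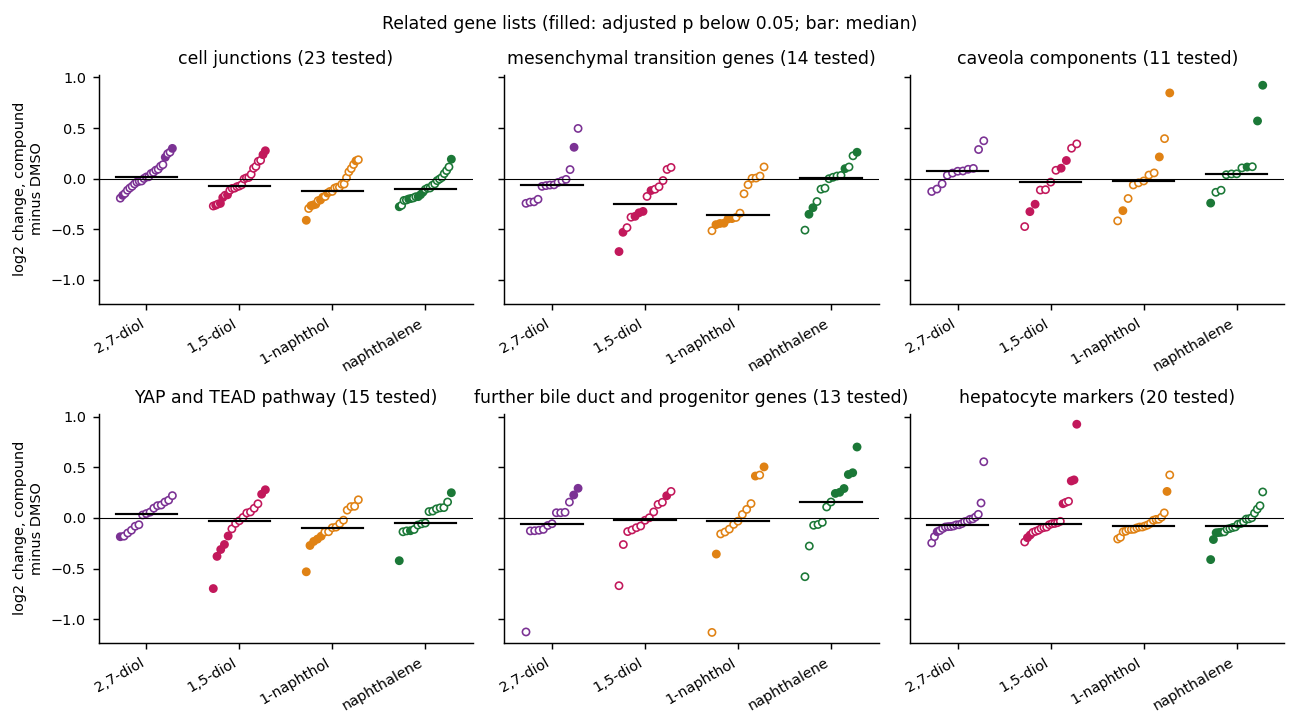
Log2 change against DMSO of each tested gene in 6 lists, by compound, ordered by size within a compound, with filled symbols where the adjusted p was below 0.05 and a bar at the median. Mesenchymal transition genes have their lowest medians with 1,5-naphthalenediol (-0.25) and 1-naphthol (-0.36), and 6 and 5 of the 14 are filled, all below 0.

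The genes whose levels ran most like those of each member over the 15 arrays were named by Pearson correlation, as a description across arrays that share groups and slides. They were Prss23 (0.97) and Car3 (0.96) for Cav1, Tlr6 (0.87) and Il10rb (0.86) for Epcam, and Arrdc1 and Cnppd1 (0.91 each) for Esam. Those for Cdh1 were Lamc1 (0.94) and Fat1 (0.88), for Krt18 Rps20 (0.91) and Csrp2 (0.90), and for Sox9 Plcd1 (0.92) and LOC102555035 (0.90).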

How the data were processed

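RNA from 15 cultures was measured on 15 rat arrays of 1 colour, 3 per group. The authors deposited spot intensities, extracted with Feature Extraction (version 10.7.1.1) per the file headers. Per the file headers, this intensity was background-subtracted and detrended within the array, and the design refers to the build rn4. From these values log2 intensities were computed, minus the 75th percentile of each array (1718 to 2074 units) over its 58717 gene spots. The 4259 control spots and 250 to 354 outlier spots per array were left out, no gene spot was saturated, and spots of a probe were averaged. Probes were named through their accession with a RefSeq gene list of GRCr8, and 21229 of 45598 had a symbol. A probe had to be well above background on every array of some group (23562 probes, 7 of them left out for a missing value), and the brightest probe stood for a gene.

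Group means were fitted in limma 3.58.1 (R 4.3.3; data.table, version 1.17.8) over 15 arrays, with Benjamini-Hochberg adjustment within each of 10 comparisons, and the procedure was tested on simulated data. The labels call the experiments independent without saying how, so p-values measure the spread between these samples. The genes and lists were chosen with earlier results of these data known. Text names all 10 genes and, per list and comparison, at most 4 called genes with the largest change. Likeness was given for the genes that passed the F test, with the 2 most correlated genes that have a symbol. Alternatives were normexp background correction (offset 50, on the median spot signal, chosen after the files had been seen), quantile and median scaling, filters, probe choice, an intensity trend, groups in the fit, slide and replicate blocks, and leaving out each array. Slide-block values of lists were also added then.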

Additional observations from a re-analysis of the deposited data

Results flagged for a closer look

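Signal for the ductal keratin gene Krt7 appeared in a probe that the comparisons do not use. The brighter of its 2 probes was well above background on 2 arrays, both of naphthalene, and on 0 of 3 arrays in each other group. Its intensities were 12.6, 7.16 and 13.8 units with 2,7-naphthalenediol, 17.0, 12.3 and 9.61 with 1,5-naphthalenediol, and 10.1, 10.9 and 14.9 with 1-naphthol. They were 22.2, 15.6 and 22.7 units with naphthalene, against 9.68, 7.19 and 18.7 units with DMSO. The ranges of naphthalene and DMSO overlap. With no filter on dim probes, the change with naphthalene was 0.96 on the log2 scale and was not called (adjusted p = 0.168), and the other Krt7 probe was above background on no array.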

How the results depend on the processing

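Of 25 calls by gene and comparison, 8 held under every alternative run: Epcam and Cav1 with 2,7-naphthalenediol, Epcam, Esam and Cav1 with 1,5-naphthalenediol and Cav1 with 1-naphthol, all against DMSO, and Cav1 with 1,5-naphthalenediol against naphthalene and against 2,7-naphthalenediol. No call reversed. Among 1162 alternative values of 70, 46 changed sign where neither value was called. Dim probes limit Krt7, Krt19 and Spp1, and 3 arrays per group and 2 slides limit the rest.

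Leaving out single arrays gave 2 to 3 called genes for 2,7-naphthalenediol, 3 to 4 for 1,5-naphthalenediol, 3 to 5 for 1-naphthol and 0 to 1 for naphthalene, each against DMSO. Against naphthalene it gave 1 to 2 for 2,7-naphthalenediol, 2 to 4 for 1,5-naphthalenediol and 3 in every case for 1-naphthol. It gave 1 to 3 for 2,7-naphthalenediol and 0 to 2 for 1,5-naphthalenediol against 1-naphthol, 1 for the diols against each other, and 4 to 6 for the F test.

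Under other settings the count with 2,7-naphthalenediol against DMSO was 5 with median scaling. That with 1-naphthol against DMSO was 3 with no filter and 1 with the slide as a block. That with naphthalene against DMSO was 0 with quantile scaling, no filter, the slide block or the replicate block, and 2 with median scaling or the mean of probes. With 2,7-naphthalenediol against naphthalene it was 4 with normexp, 1 with quantile or median scaling, no filter or only the 2 groups, and 0 with the slide block. With 1,5-naphthalenediol against naphthalene it was 1 with the slide block or on slide 2 alone, and with 1-naphthol against naphthalene 0 in the fit of only the 2 groups, which is slide 2 alone. With 2,7-naphthalenediol against 1-naphthol it was 1 with no filter and 0 with the slide block, and with 1,5-naphthalenediol against 1-naphthol 1 with normexp and 2 with the intensity trend. Fits of fewer arrays have fewer degrees of freedom, and the slide block separates slide and compound through 3 arrays. Other causes were not tested. Normexp on the mean spot signal was not run.

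Replicate numbers do not pair the arrays: once each group mean was subtracted, 2 of 30 same-number pairs had a correlation above 0.1, and for 5 of 15 arrays the best match carried the same number. With a replicate block, calls were lost for Krt18 with 1,5-naphthalenediol (adjusted p = 0.0506) and for Sox9 with 1-naphthol (adjusted p = 0.0543) and naphthalene (adjusted p = 0.0572), all against DMSO. The share of higher genes among all calls moved by over 10 percentage points with median scaling in every comparison with DMSO, as given above. It also moved to 55.5%, 60.5% and 74.9% for 2,7-naphthalenediol, 1,5-naphthalenediol and 1-naphthol against naphthalene, from 40%, 45.2% and 42.7%, and with quantile scaling to 55.8% for 1-naphthol. With normexp it moved to 29.9% for 2,7-naphthalenediol against naphthalene, and to 31.4% and 36.3% for 2,7-naphthalenediol and 1,5-naphthalenediol against 1-naphthol, from 42.3% and 47.6%.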
